A study of Mus musculus with 8 samples.

Results

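The data described here are the microRNA (miRNA) profile of uninduced C3H10T1/2 cells. This established mouse line of mesenchymal origin can form bone, cartilage and fat cells in culture. Its members are the 2 arrays whose induction label is none, of 8 arrays in the series, and every mouse miRNA that the arrays measure, 611 in all. The study asked how wild type (WT) and E95K mutant (MT) IhhN, the signalling part of Indian hedgehog, change these cells, and the uninduced cells served as its control group. They were incubated for 48 h in MEM/EBSS with serum and no protein is named as their inducer, although the labels also carry 750 nM for them. No allele or genetic change is named for the control cells. The labels number the 2 control samples as replicates but do not say that they came from separate cultures, so the spread between them may be technical. With 2 arrays no test was run, and every value is a description of these arrays.

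miRNAs are short non-coding RNAs cut from a hairpin whose arms are named 5p and 3p. Bound to an Argonaute protein, a miRNA pairs with mRNAs mainly through its seed, the bases near its 5′ end, and lowers their output, so miRNAs with the same seed are counted as a family. In mesenchymal cells, let-7, miR-125b, miR-21, miR-29 and the miR-199 and miR-214 pair are well known members of the repertoire.

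Of the 611 mouse miRNAs, 142 were detected on both control arrays, which is 23.2% of all. A miRNA counted as detected when more than 50% of the spots of one of its probes were marked well above background. Replicate 1 detected 150 and replicate 2 detected 146, so 12 miRNAs were detected on 1 array only, and 457 were detected on neither. The mature sequences of the brightest miRNAs are shown first, because they show which of them share a seed (bases 2 to 8, in capitals) and how little the let-7 members differ. They are from RefSeq on GRCm38.p6, which holds a matched sequence for 17 of the 20 brightest and for 122 of the 142 detected miRNAs. The first set is the let-7 family, the second the miR-125 family, the third the miR-15, miR-16 and miR-322 family, and the last the other miRNAs among the 20 brightest that have a matched sequence.
let-7c-5p: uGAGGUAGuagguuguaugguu
let-7a-5p: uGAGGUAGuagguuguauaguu
let-7b-5p: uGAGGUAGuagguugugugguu
let-7f-5p: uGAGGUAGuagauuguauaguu
let-7e-5p: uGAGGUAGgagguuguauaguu
let-7d-5p: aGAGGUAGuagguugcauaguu
let-7i-5p: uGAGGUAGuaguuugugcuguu
let-7g-5p: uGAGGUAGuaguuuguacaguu
miR-98-5p: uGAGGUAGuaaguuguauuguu
miR-125b-5p: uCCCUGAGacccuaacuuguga
miR-125a-5p: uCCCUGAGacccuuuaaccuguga
miR-351-5p: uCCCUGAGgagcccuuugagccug
miR-322-5p: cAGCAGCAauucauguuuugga
miR-16-5p: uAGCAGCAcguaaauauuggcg
miR-15b-5p: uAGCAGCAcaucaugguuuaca
miR-21-5p: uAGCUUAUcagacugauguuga
miR-23a-3p: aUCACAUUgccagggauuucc
miR-199a-3p: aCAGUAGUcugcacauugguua
miR-29a-3p: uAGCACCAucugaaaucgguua
miR-140-3p: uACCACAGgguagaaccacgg
miR-24-3p: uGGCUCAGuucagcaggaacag
miR-26a-5p: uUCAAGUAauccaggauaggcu
miR-22-3p: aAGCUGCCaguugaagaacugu

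Several of these miRNAs are made from more than 1 place in the genome, and their mature form does not tell the copies apart. miR-125b-5p lies at chr9:41581940-41581961 (plus strand, within the long non-coding gene Mir100hg) and at chr16:77646279-77646300 (plus strand). miR-21-5p lies at chr11:86584120-86584141 (minus strand), within the bounds of the protein-coding gene Vmp1. miR-199a-3p lies at chr1:162217883-162217904 (plus strand), within the bounds of Dnm3 and its antisense gene Dnm3os, and at chr9:21496498-21496519 (minus strand) within those of Dnm2. miR-140-3p lies at chr8:107551288-107551308 (plus strand), within the bounds of Wwp2, a host gene that cartilage is known to express. Whether these positions are exonic or intronic was not analysed here.

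The detected signal was held by few miRNAs. In each array the signal of a miRNA (the mean intensity of its brightest probe, after background subtraction) was divided by the sum over the 142 detected miRNAs, which was 116421 on replicate 1 and 84265 on replicate 2. The brightest 10 held 58.9% ± 0.076 (SD, n = 2) of that total, with 58.9% on replicate 1 and 59.0% on replicate 2. The brightest 5 held 41.0% ± 2.1 (SD, n = 2) and the brightest 20 held 74.4% ± 0.41 (SD, n = 2). A count of 8 miRNAs was enough to hold 50% of the total, 7 on replicate 1 and 8 on replicate 2. At the other end, 64 of the 142 held under 0.1% each and 3.19% together. From the highest to the lowest detected miRNA the signal fell 797-fold on replicate 1 and 533-fold on replicate 2.

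**Figure D1:**
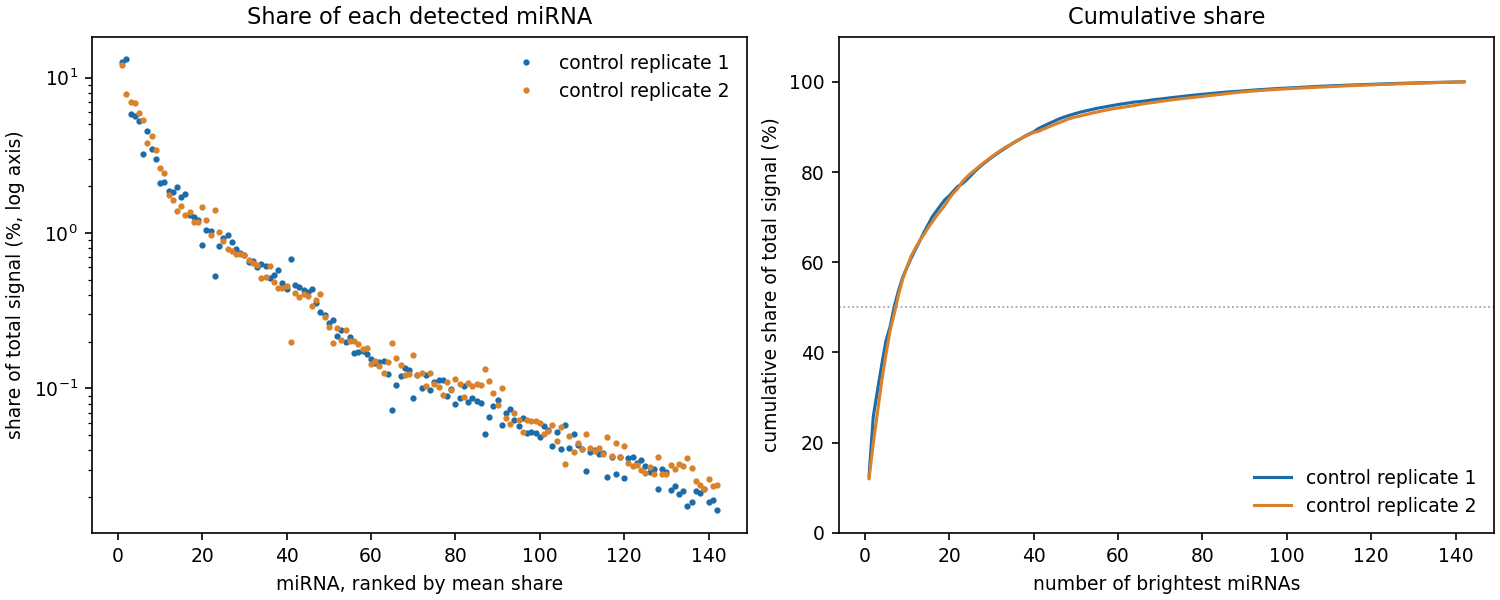
Left, the share of the total signal (%, log axis) of each of the 142 miRNAs detected on both arrays, ranked by mean share, with a point for each control replicate. Right, the cumulative share (%) against the number of brightest miRNAs, where both arrays cross 50% (dotted line) within the first 8 miRNAs and the brightest 20 reach 74.4% on average.

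miR-125b-5p, a miRNA of stem and progenitor cells, had the highest mean share. Its signal was 14739.7 on replicate 1 and 10116 on replicate 2, and its share 12.7% and 12.0%, a mean of 12.3% ± 0.46 (SD, n = 2). The entry named miR-720 followed with signals of 15257 and 6619. Its shares were 13.1% and 7.85%, so it led on replicate 1 and was in place 2 on replicate 2, and the order of these brightest 2 is not settled. The name miR-720 has since been withdrawn from miRNA catalogues because the sequence belongs to a transfer RNA, which is background and was not examined in these data.

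miR-21-5p, a miRNA abundant in many proliferating cells, was in place 3 on both arrays. Its signal was 6778 on replicate 1 and 5859 on replicate 2, or 6.39% ± 0.80 (SD, n = 2) of the total. Places 4 and 5 were held on both arrays by let-7c-5p and let-7a-5p, at 6.24% ± 0.83 and 5.60% ± 0.44 (SD, n = 2). Places 3 to 5 came in the same order on both arrays, but the gaps between neighbours were smaller than the spread of a miRNA between the replicates.

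miR-709 and miR-23a-3p came next with almost the same mean level, and the arrays did not give the same order. The signal of miR-709 was 3759 and 4499, or 4.28% ± 1.5 (SD, n = 2), and that of miR-23a-3p was 5266 and 3209, or 4.17% ± 0.51 (SD, n = 2). miR-709 was thus the brighter on replicate 2 and the dimmer on replicate 1. miR-199a-3p had signals of 2464 and 2055 and a share of 2.28% ± 0.23 (SD, n = 2). Its copies lie within Dnm3os, a transcript that skeletal development needs, and within Dnm2, and the arrays cannot tell them apart. miR-29a-3p, whose known targets include collagen mRNAs, had signals of 2148 and 1366 and a share of 1.73% ± 0.16 (SD, n = 2). The signals of miR-140-3p, from the cartilage-associated miR-140 hairpin, were 2289 and 1161, and its share was 1.67% ± 0.42 (SD, n = 2).

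The remaining places of the brightest 20 were let-7b-5p, let-7f-5p, let-7e-5p, let-7d-5p, let-7i-5p, miR-23b-3p, miR-24-3p, miR-26a-5p, miR-22-3p and miR-322-5p, with mean shares between 1.15% and 3.84%. Of the 19 neighbouring pairs in this order, 10 kept their order on both arrays, and 6 were apart by more than the spread between replicates of both miRNAs. These 6 steps were those below miR-720, let-7b-5p, let-7f-5p, miR-199a-3p, let-7i-5p and miR-26a-5p. All other neighbours did not differ beyond their spread. Of the 20, 19 were also among the brightest 20 of replicate 1 alone and 18 among those of replicate 2 alone.

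**Figure D2:**
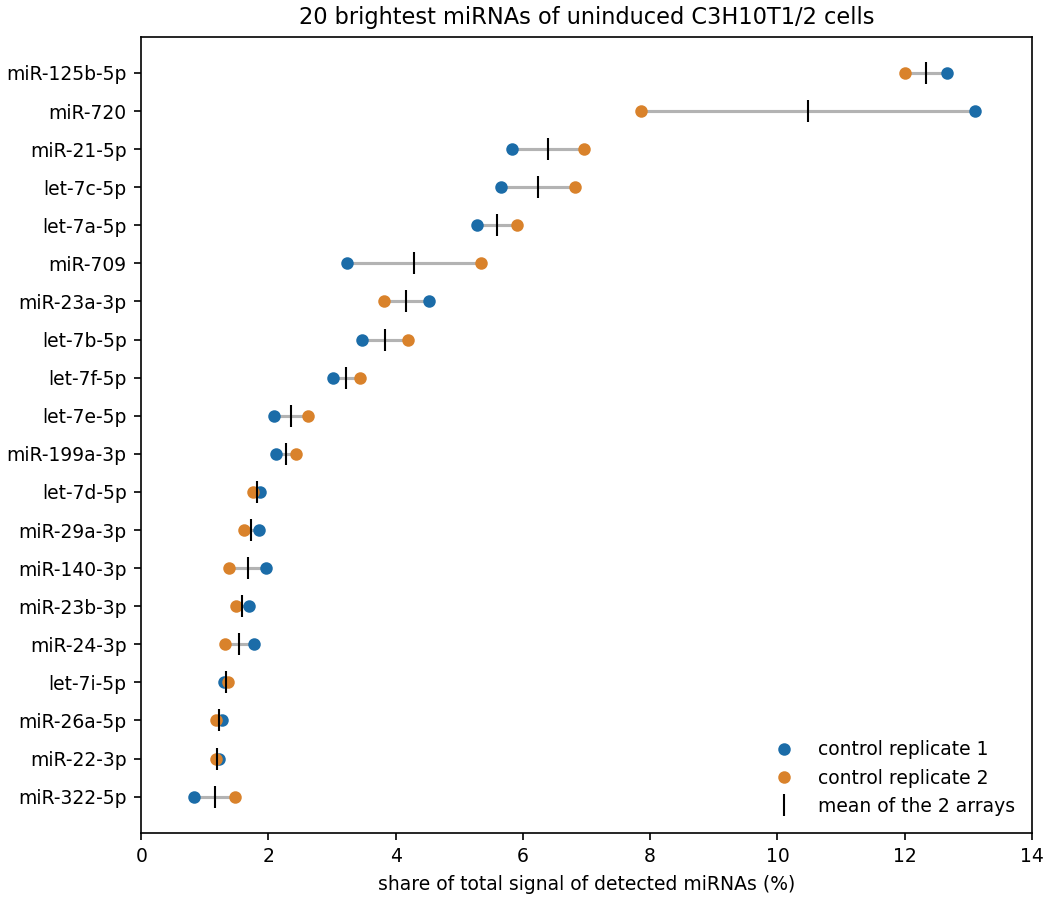
Share of the total signal (%) of the 20 brightest miRNAs, ordered by mean share. Points are the control replicates, the grey line joins them and the black tick is their mean. The points lie farthest apart for miR-720 (13.1% and 7.85%), followed by miR-709 (3.23% and 5.34%).

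A signal depends on the probe as well as on the RNA, so the order is one of array signals and not of copies per cell. A part of this effect can be seen in miRNAs with more than 1 probe detected on both arrays, of which there were 105. Undetected probes are left out, and how probes for different miRNAs differ was not measured. Between the brightest and the dimmest probe of the same miRNA the signal differed by a median of 2.01-fold (25th to 75th percentile 1.47 to 3.11), and over 4-fold for 16 miRNAs. Leading entries are among them. The probes of miR-709 differed 11.4-fold, those of miR-125b-5p 6.39-fold and those of miR-720 6.37-fold, with much the same ratio on each array (11.8 and 10.9 for miR-709, 6.40 and 6.39 for miR-125b-5p, 6.26 and 6.48 for miR-720). The other 2 with the most unequal probes were miR-29b-3p at 7.51-fold and miR-30b-5p at 6.24-fold. With the dimmest detected probe of each miRNA instead, an alternative chosen after seeing these values, miR-21-5p led with 7.75% ± 0.46 (SD, n = 2), let-7c-5p followed with 7.33% and miR-125b-5p was in place 5 with 5.03% ± 0.33 (SD, n = 2). Even so, 18 of the brightest 20 were shared with the order by brightest probe.

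The let-7 family, which restrains growth genes and is made as cells leave the embryonic state, was the largest family by signal. All 9 of its 5p members on the array with a RefSeq sequence of this seed (GAGGUAG) were detected, miR-98-5p included, and together they held 23.3% of the total on replicate 1 and 26.8% on replicate 2, a mean of 25.1% ± 2.5 (SD, n = 2). The members ranged widely. let-7c-5p was at 6578 and 5752, let-7g-5p at 602 and 519, and miR-98-5p at 105 and 93.0 on replicates 1 and 2. No let-7 3p arm was detected on both arrays, and let-7d-3p was detected on replicate 1 alone with signals of 20.6 and 14.9.

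The let-7 values, single and summed, carry a limit that the sequences show. Counted from the 5′ end and with let-7a-5p as the reference, let-7c-5p differs only by A19G, let-7e-5p only by U9G and let-7f-5p only by G12A, while let-7b-5p differs by A17G and A19G. Among the 36 pairs of detected members, 14 differ at 2 positions or fewer and the most distant pair at 6. How far a probe for one of them also bound another was not tested.

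The miR-125 family was second among seeds, with 13.5% and 12.9% of the total on replicates 1 and 2, nearly all of it miR-125b-5p. miR-125a-5p added signals of 865 and 618, and miR-351-5p, a rodent member, 76.7 and 94.0. The miR-23, miR-24 and miR-27 clusters, which are transcribed together from a pair of loci, held 9.59% and 7.96%, led by miR-23a-3p. Of their 9 listed miRNAs 7 were detected, against 23.2% of all mouse miRNAs on the array. The miR-199 and miR-214 group was complete, with 5 of 5 detected and 4.47% and 4.73% of the total. The miR-15, miR-16 and miR-322 family, known for slowing the cell cycle, had 6 of 9 listed miRNAs detected. They held 2.54% and 3.07% of the total, led by miR-322-5p. The miR-29 family held 2.17% ± 0.15, miR-140 with miR-455 2.11% ± 0.47, and the miR-99 and miR-100 family 1.95% ± 0.097 (SD, n = 2 for each). The last 3 were led by miR-29a-3p, miR-140-3p and miR-99a-5p.

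Grouped only by the printed sequence, the 122 detected miRNAs with a RefSeq match carried 85 seeds, and 20 of these seeds were shared by at least 2 of them. The 5 leading seeds held 51.5% ± 2.7 (SD, n = 2) of the total with 19 miRNAs. Those were the seeds of let-7, miR-125b-5p, miR-21-5p, miR-23a-3p and miR-322-5p. miR-720 (10.5%), miR-709 (4.28%) and miR-23b-3p (1.59%) had no matched sequence and are not in this count, although they are part of the total. The seed of miR-23a-3p held 4.17% and that of miR-322-5p 2.70%, less than miR-720 or miR-709 alone.

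Smaller families were present at low levels. Of the miR-34 miRNAs, which p53 is known to induce, all 5 listed by name were detected, against 23.2% of all on the array. That list takes in 3p arms. By the seed GGCAGUG, 2 of the 4 miRNAs on the array with a matched sequence were detected, miR-34a-5p and miR-34b-5p. miR-34c-5p had no matched sequence. The 5 listed miRNAs held 1.64% ± 0.087 (SD, n = 2) of the total, led by miR-34a-5p at 703 and 528. The miR-30 family held 1.51% ± 0.097 and miR-26 1.44% ± 0.031, and miR-221 with miR-222, which promote proliferation in many cell types, 1.14% ± 0.059 (SD, n = 2 for each). Their brightest members were miR-30b-5p, miR-26a-5p and miR-221-3p. miR-31 held 1.06% ± 0.12, miR-103 with miR-107 0.825% ± 0.062, and miR-193 with miR-365 0.81% ± 0.075 (SD, n = 2 for each), led by miR-31-5p, miR-103-3p and miR-365-3p. The miR-130 and miR-301 family held 0.789% ± 0.030, led by miR-130a-3p, and miR-148 with miR-152 0.371% ± 0.0065, led by miR-148a-3p (SD, n = 2 for each).

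Of the miR-17, miR-18, miR-19 and miR-92 clusters with their paralogs, the oncogenic clusters that MYC is known to drive, 7 of 20 miRNAs were detected, against 23.2% of all on the array. They held 0.761% ± 0.049 (SD, n = 2) of the total, and the brightest, miR-92a-3p, was at 199 on replicate 1 and 164 on replicate 2. miR-17-5p itself was detected on neither array (-1.11 and -1.61), while miR-20a-5p of the same cluster was at 97.6 and 65.9. The miR-181 family had 2 of 6 listed miRNAs detected, led by miR-181a-5p, and 0.103% ± 0.0052 (SD, n = 2). miR-143-3p, a miRNA of smooth muscle and fibroblasts, was at 152 and 104, and together with miR-145-5p (41.9 and 30.8) it held 0.163% ± 0.0046 (SD, n = 2). Of the 8 miRNAs of the Hox clusters (miR-10, miR-196 and miR-615), which mark a cell's position along the body axis, only miR-196b-5p was detected, at 22.5 and 19.8, close to the limit of detection.

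The cell type markers in the lists used here went with the mesenchymal label, but the lists do not cover every miRNA known from other tissues. For example, miR-202-3p, best known from gonads, is on none of them and was detected at 118 and 107. For comparison, 23.2% of all mouse miRNAs were detected on both arrays. Of 19 miRNAs in the mesenchymal list (among them miR-21, miR-125b, miR-143, miR-145, miR-199, miR-214 and miR-221), 16 were detected. They held 28.0% and 28.3% of the total on replicates 1 and 2, with miR-125b-5p at a mean of 12.3% and miR-21-5p at 6.39%. This list and those of other cell types were written with earlier results of these data known. They are not independent evidence of cell identity. In 10 lists of other cell types none of the 94 miRNAs was detected on either array. Among them were 9 of skeletal and heart muscle (miR-1, miR-133 and miR-206), 1 of liver (miR-122), 6 of neurons (miR-9, miR-124), 7 of blood cells (miR-142, miR-223), 12 of epithelial cells (the miR-200 family), 22 of embryonic stem cells (miR-290 to miR-302), 2 of endothelial cells (miR-126) and 25 of testis germ cells. The highest signal of any of them was 12.5 on replicate 1 and 18.0 on replicate 2, below the lowest miRNA detected on the same array (18.3 and 18.8), and their median signals were -1.13 and -0.718, where 0 is the local background. The brightest by mean was miR-290-3p with 12.3 and 18.0. The software's own detection call, which is more permissive, also counted miR-290-3p and the blood cell marker miR-223-3p (11.8 and 14.8) as detected on both arrays.

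**Figure D3:**
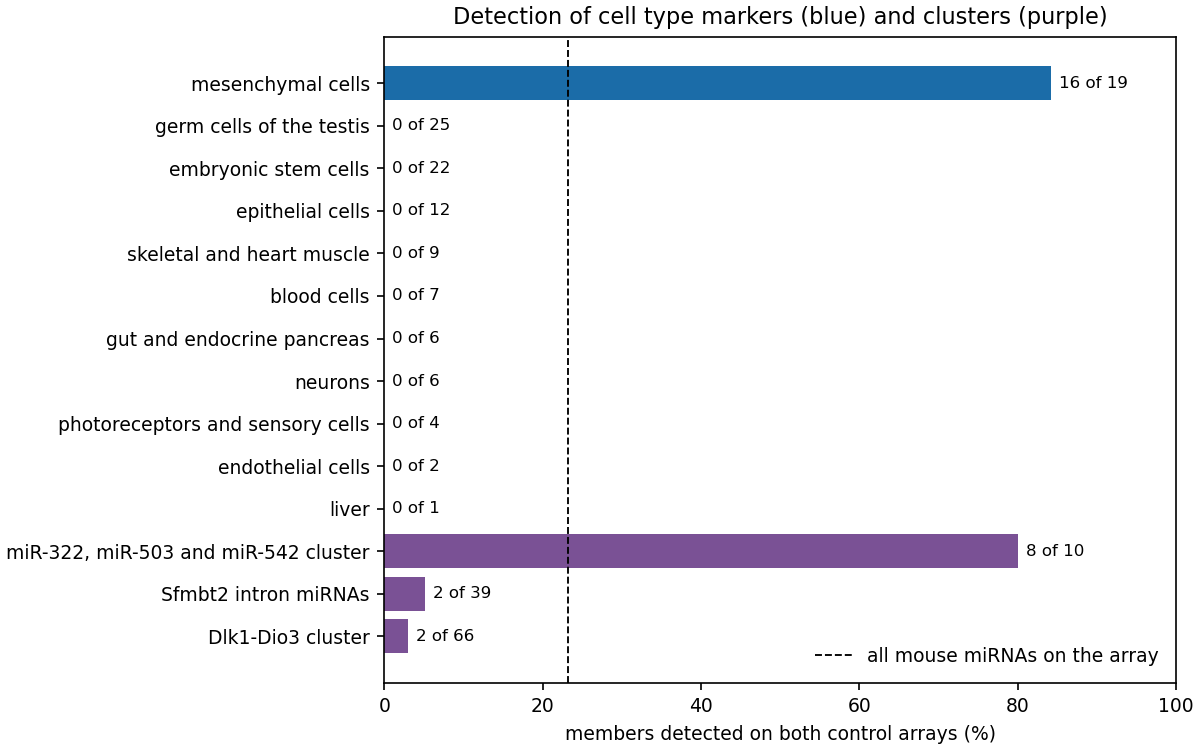
Percentage of the members of each list that were detected on both control arrays, with counts beside the bars, for cell type markers (blue) and 3 genomic clusters (purple). The dashed line is the 23.2% of all mouse miRNAs on the array. Mesenchymal markers (16 of 19) and the miR-322, miR-503 and miR-542 cluster (8 of 10) stand above it, and the 10 lists of other cell types are at 0.

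Large blocks of the genome's miRNAs were undetected together, while 23.2% of all mouse miRNAs were detected on both arrays. Of 66 miRNAs of the imprinted Dlk1-Dio3 cluster, 2 were detected, miR-494-3p (67.4 and 84.3) and miR-487b-3p (44.0 and 34.8), for 0.118% ± 0.032 (SD, n = 2) of the total. Of 39 from the Sfmbt2 intron, a rodent cluster with many near-identical copies, 2 were detected, led by miR-669f-3p at 49.5 and 49.2. In contrast, 8 of 10 miRNAs of the X-linked miR-322, miR-503 and miR-542 cluster were detected, with 1.26% and 2.12% of the total. Among 44 clusters with at least 2 hairpins on the array (RefSeq hairpin genes on 1 strand with gaps of at most 10000 bases), all of these hairpins had a detected arm in 19, some in 10 and none in 15. A mature miRNA with several genomic copies was counted in each of its clusters, since the arrays cannot tell the copies apart.

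The number in a miRNA's name broadly follows the order of discovery, and detection differed between ranges of it, against 23.2% of all. Of the miRNAs numbered 1 to 100, let-7 included, 51 of 100 were detected and held 53.5% ± 1.9 (SD, n = 2) of the total. Of those numbered 101 to 199, 32 of 101 were detected, and of those numbered 200 to 299, 10 of 57. The later ranges showed no steady order, with 16 of 78 for 300 to 399 and 8 of 84 for 400 to 499. Then came 9 of 55 for 500 to 669 and 16 of 135 for 670 to 2000. The last range held 16.7% ± 1.4 (SD, n = 2) of the total, most of it miR-720 and miR-709.

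For 176 hairpins both arms were on the array, 22 of them paired through an arm that several copies share, such as miR-24-3p. An arm counted here only when it was detected on both arrays. By this rule both arms were detected for 14, the 5p arm alone for 43, the 3p arm alone for 17 and neither for 102. Ratios are given only for the 14 with both arms detected, so pairs with an undetected arm, which can be more uneven, are not ranked. For example, miR-21 was at 6778 and 5859 in its 5p arm and at 4.37 and 1.82 in its 3p arm. Among the 14, the most uneven pair was miR-22. Its 3p arm was at 1419 and 985 and its 5p arm at 24.9 and 20.2, a ratio of 52.8-fold (57.0 on replicate 1 and 48.8 on replicate 2). miR-24-1 and miR-24-2 share their 3p arm (2060 and 1107), which was 44.9-fold brighter than the 5p arm of the former and 13.6-fold brighter than that of the latter. miR-214 was also brighter in its 3p arm, 22.6-fold, while miR-322 was brighter in its 5p arm, 9.99-fold. The 5p arm was brighter in miR-574 (5.69-fold) and miR-31 (5.08-fold), and also in miR-34c, miR-324 and miR-34b (4.68-fold, 3.63-fold and 2.89-fold). The 3p arm was brighter in miR-29b-1 (7.74-fold), miR-140 (4.27-fold) and miR-199a (3.14-fold).

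The most even of the 14 pairs was miR-542, where the 3p arm was brighter 1.15-fold on replicate 1 and 1.49-fold on replicate 2. Each of these ratios sets different probes against each other, and probes of the same miRNA differed by up to 11.4-fold. The ratios of miR-22, miR-24-1, miR-24-2 and miR-214 were above that value, and those of the other 10 hairpins were below it. Probes for different arms may differ by more than that value, which was not measured. The arm that was brighter was the same on both arrays for all 14 hairpins.

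**Figure D4:**
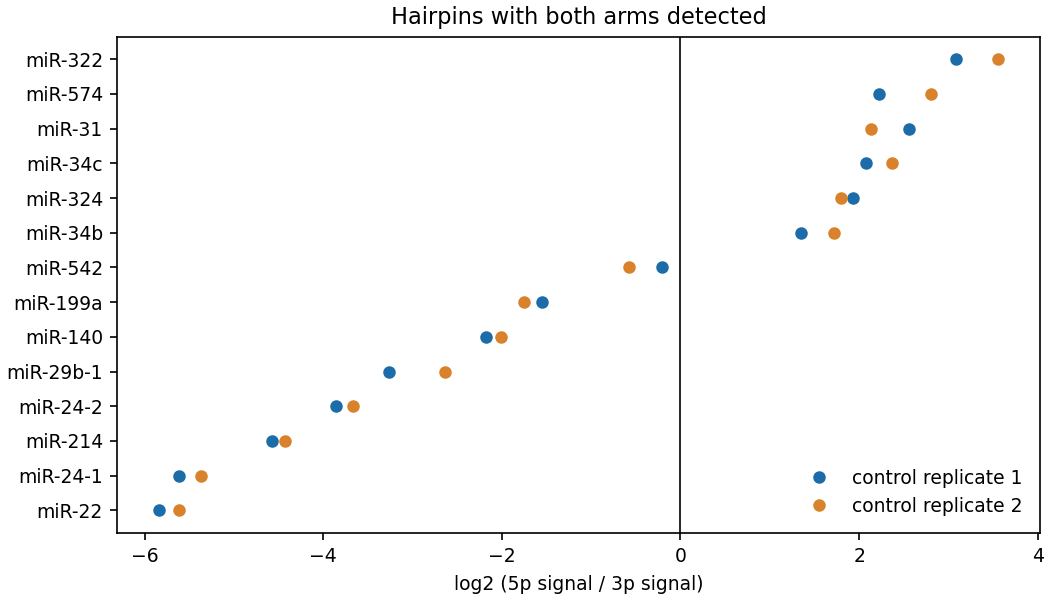
Log2 ratio of the 5p signal to the 3p signal for the 14 hairpins with both arms detected, with a point for each control replicate and a line at equal signal. Values left of 0 are brighter in the 3p arm. miR-22 (mean -5.72) and miR-322 (mean 3.32) lie at the ends, and miR-542 (mean -0.39) lies nearest to 0.

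The edge of detection was close for both arrays. The 5 dimmest miRNAs detected on both were miR-877-5p (19.2 and 20.2), miR-196b-5p (22.5 and 19.8), miR-702 (21.7 and 22.0), miR-22-5p (24.9 and 20.2) and miR-574-3p (26.4 and 19.0). The 5 brightest detected on neither were miR-467f (17.9 and 19.9), miR-669a_v15.0 (18.5 and 18.0), miR-671-5p (15.3 and 18.0), miR-298-5p (18.4 and 14.5) and miR-290-3p (12.3 and 18.0). Of those detected on 1 array only, miR-697, miR-193-5p, miR-744-5p, miR-125a-3p and miR-877-3p had the highest mean signals, between 19.9 and 21.9. These groups lie within a few units of each other. The negative control spots averaged 4.20 with an SD of 2.91 (410 spots, replicate 1) and 4.28 with an SD of 3.38 (416 spots, replicate 2). On replicate 1 the lowest signal called was 18.3 (miR-712-5p) and the highest not called was 24.97 (miR-697), and on replicate 2 these were 18.8 (miR-466f-3p) and 19.9 (miR-467f). An undetected miRNA is not shown to be absent. All 457 miRNAs detected on neither array held 0.88% and 1.09% of the summed positive signal of all 611.

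The arrays differed most in overall brightness. The summed signal of the detected miRNAs was 1.38 times as high on replicate 1 as on replicate 2, and 120 of the 142 were brighter on replicate 1. After each array was divided by its 75th percentile over probes detected on both, the SD between replicates had a median of 0.16 on the log2 scale, and 5 miRNAs were over 2-fold apart.

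miR-210-3p, the miRNA best known for its induction by low oxygen, had the largest such difference. Its signal was 789 on replicate 1 and 167 on replicate 2, and after scaling it was 3.24-fold higher on replicate 1. In the opposite direction, miR-503-5p was at 84.5 and 165, or 2.83-fold higher on replicate 2 after scaling. Of the 8 detected miRNAs of its X-linked cluster, miR-503-5p, miR-322-5p (971 and 1241) and miR-351-5p (76.7 and 94.0) were brighter on replicate 2 before scaling. The other 5 were brighter on replicate 1, such as miR-322-3p (114 and 106) and miR-542-5p (41.6 and 27.9). After scaling, miR-542-5p alone of the 8 was higher on replicate 1, by 0.04 on the log2 scale. The other members of the largest 5 were miR-1224-5p (620 and 1185), miR-1895 (59.3 and 113) and miR-680 (20.3 and 30.0), all higher on replicate 2.

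Late-numbered miRNAs moved apart from the rest. Of the 16 detected miRNAs numbered 670 or above, 13 were brighter on replicate 2 even before scaling, against 9 of the other 126. Their median difference after scaling was 0.74 on the log2 scale, against 0.08 for the others. The G and C content of the 11 with a RefSeq sequence had a median of 63.6%, against 45.8% for the other 111 with one. Over all 122 detected miRNAs with a sequence, which share the same pair of arrays, GC content and the difference between replicates had Pearson's r = 0.12. The part of base composition in these differences was not tested. miR-720, miR-690 and miR-674-3p were the late-numbered entries brighter on replicate 1. Some late-numbered miRNAs lay near the limit of detection, such as miR-877-5p (19.2 and 20.2) and miR-702 (21.7 and 22.0). Others, such as miR-709 (3759 and 4499), were bright. Scaling divided replicate 1 by 537 and replicate 2 by 369, which raises replicate 2 relative to replicate 1 for every miRNA alike.

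**Figure D5:**
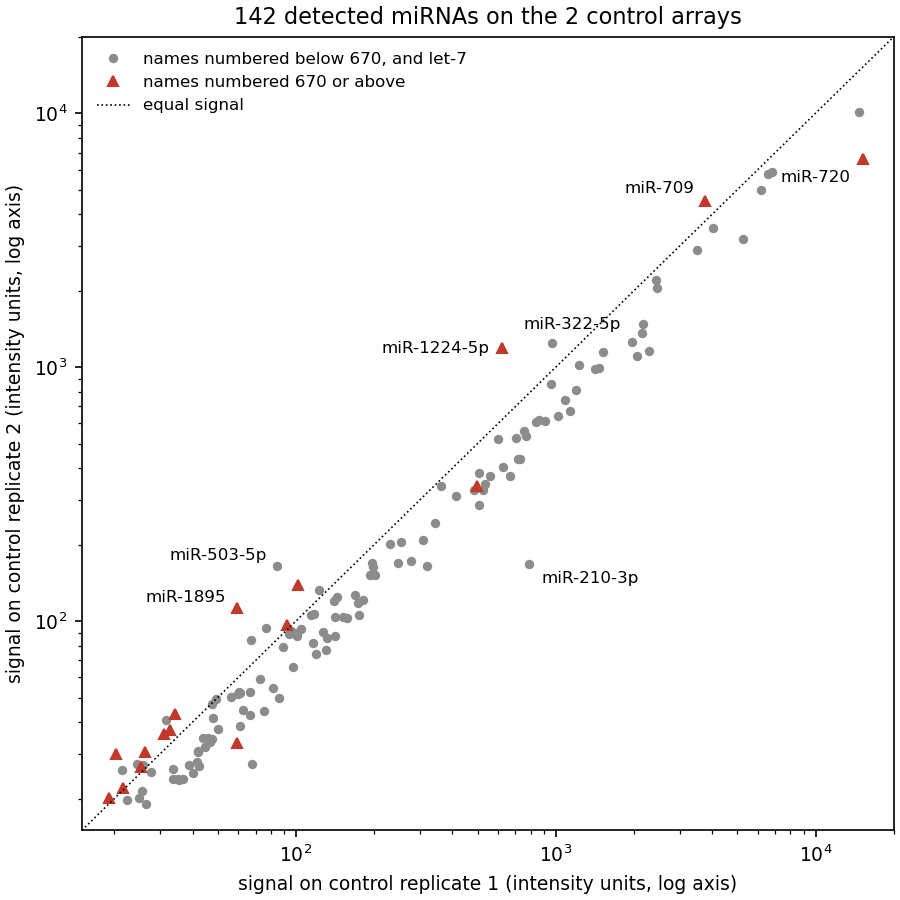
Signal of the 142 detected miRNAs on control replicate 1 against control replicate 2 (intensity units, log axes, not scaled). Triangles are miRNAs numbered 670 or above and the dotted line marks equal signal, below which 120 of the 142 lie. miR-210-3p lies farthest below the line (789 and 167), and miR-503-5p, miR-1224-5p and miR-1895 lie above it.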

How the data were processed

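Total RNA of the 2 control samples was labelled with Cy3 and hybridised to 1-colour Agilent miRNA arrays on 1 slide. The authors deposited each array's scanner output, holding background-subtracted spot intensity, per the file headers made by Feature Extraction version 10.7.1.1 (the submitters' processing notes name version 9.1), and a series table that holds the same background-subtracted intensities to within 0.5 units. The labels give 0.5 µg of RNA per labelling. The paper's methods mention microRNA arrays only under gene expression analysis, with a different RNA amount, a later software version and a gene expression array. Whether that passage covers the arrays used here is not stated. How the authors normalized the miRNA arrays is not given in these sources. The header names mm9. Other deposited columns used were marks for each spot (other: outlier, well above background, saturated) and the software's total signal per miRNA (intensity). No mouse spot was saturated.

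Control spots and outlier spots (465 and 426 of 12220 mouse spots) were left out, and the 5 to 20 spots of a probe were averaged. Of the 1759 probes, 1 to 4 belong to a miRNA, and its brightest probe gave the signal. The median coefficient of variation over the spots of a detected probe was 7.86% and 8.10%. Spike-in signals were out of the software's range on both arrays, so no copy numbers were derived. The number of arrays limits the precision. Shares are percentages of the summed signal of miRNAs detected on both arrays. For differences between replicates each array was divided by its 75th percentile over probes detected on both, and log2 was taken.

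The members, the lists of miRNAs and the naming rule were chosen with earlier results of these data known. The rule named the 20 highest mean shares, the brightest member of each list, the 5 dimmest detected and 5 brightest undetected miRNAs, up to 5 detected on 1 array, the 5 most even and 5 most uneven arm pairs, and the 5 largest differences between replicates and between probes. Others (such as miR-322-5p and miR-351-5p between the replicates, and the late-numbered miRNAs) were chosen after their values were seen. The list entry miR-1 was extended to the array's spellings miR-1a and miR-1b.

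Arms named with a copy number (miR-24-1-5p) were paired with the arm their copies share. Sequences were matched by name (478 of 611) or by an older symbol with the same arm (19). Python version 3.11.15, pandas, limma version 3.58.1 and matplotlib were used. The code for shares and detection was run on simulated spots. Their planted signals lay far above background and their above-background mark was set by a fixed cutoff. That run cannot tell how reliable the calls near the edge of detection are. Alternatives covered the signal column, normexp background correction (on the median signal, with an offset of 50), outlier spots, the choice of probe, the detection rule, the scaling and leaving out each replicate. The 6 arrays of induced cells were not used here.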

Additional observations from a re-analysis of the deposited data

Results flagged for a closer look

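The arrays also carry 39 miRNAs of viruses, which no comparison used, and 2 of them were detected on both control arrays. mcmv-miR-M23-1-5p, named for mouse cytomegalovirus, had signals of 86.2 on replicate 1 and 45.2 on replicate 2, above the negative control spots, whose highest signals were 13.9 and 15.7. mghv-miR-M1-2-3p, named for a murine gammaherpesvirus, had signals of 23.3 and 23.1, which is near the lowest detected mouse miRNAs. mcmv-miR-m88-1 was detected on replicate 1 only. Whether these probes bound a viral RNA or a mouse RNA was not tested.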

How the results depend on the processing

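The count of 142 detected miRNAs ranged from 128, when every spot of a probe had to be well above background, to 165 by the software's call, and 143 with outlier spots kept. The lists of other cell types had 0 detected members under every rule but the software's call, which gave 2. The share of the brightest 10 (58.9%) moved by more than its small spread between replicates under most settings. It was 54.2% with normexp, 56.1% with the mean and 55.8% with the sum of all probes, 51.3% by the software's total signal, 58.7% with its detection call, 58.2% with no filter, and 59.1% with every spot above background. With a single array it was 58.8% to 58.9%. Under settings chosen after seeing the data it was 50.1% with the dimmest detected probe and 56.6% without miR-720 and miR-709. The let-7 share (25.1%) was 22.6% to 27.0% under the planned settings, 30.9% with the dimmest probe and 29.4% without miR-720 and miR-709. The brightest miRNA on replicate 1 alone was miR-720, and its share was 13.1%. Of the 20 brightest, 17 to 20 were shared with every other setting. The median SD between replicates (0.16) was 0.25 with the 75th percentile of all mouse probes and 0.32 with no scaling, and 0.14 to 0.20 otherwise. Apart from what each setting leaves out, the cause was not tested. No paired analysis was possible because 1 group only was described.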

Other observations

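The software's total signal per miRNA, a deposited column, went against the spots for a few miRNAs. For miR-7a-5p it was 11759.6 on replicate 1 and 41.9 on replicate 2, while the brightest probe had 27.6 and 25.4. For miR-128-3p it was 36.3 and 7789, while the brightest probe had 36.8 and 23.9. For most detected miRNAs this total was close to the signal of the brightest probe, with a median ratio of 1.02 on replicate 1 and 1.03 on replicate 2. The ratio was over 10 times its median for 5 miRNAs on replicate 1 and for 9 on replicate 2, among them miR-29b-1-5p (80.5 and 48.4) and miR-135a-1-3p (41.9 and 26.2), both with brightest-probe signals under 30. By that column miR-7a-5p was in place 5 of the profile. Without miR-7a-5p and miR-128-3p, the brightest 10 held 51.7% of the total by that column.

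miR-202-3p, best known from gonads, was detected at 118 and 107, while its 5p arm was at 0.19 and -0.91. It was chosen after its values were seen.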
